A study of Mus musculus with 8 samples.

Results

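The laminin and integrin subunit genes are the genes that encode the chains of laminins, the cross-shaped glycoproteins of basement membranes, and the chains of integrins, the cell surface receptors that hold cells to laminins, collagens, fibronectin and other ligands. They were taken from the count table by symbol, as every row named Lama, Lamb or Lamc with a number or Itga or Itgb with a number or subunit letter. This gave 37 of 55353 rows: 11 laminin chains, 18 integrin α subunits and 8 integrin β subunits. Of these, 31 passed the filter on low counts and were among the 13992 genes tested. The data are mRNA sequencing counts from mouse aortic vascular smooth muscle cells, which were revived from frozen stocks and lysed in the dish. The genotypes are labelled E12 KO, E12 WT, E47 KO and E47 WT, with 2 libraries each and 8 in all. E12 and E47 are basic helix-loop-helix transcription factors made by alternative splicing of Tcf3, and they bind the DNA letters CANNTG, called an E-box. Age, sex, passage, the kind of knockout allele and the number of cell clones behind each genotype are not stated in the labels. Whether the pair for a genotype came from 1 culture or animal or from several is not stated, so p-values cover only how far RNA extractions differ, and this may be technical.

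A laminin is a trimer of 1 α, 1 β and 1 γ chain, and its number names the chains, so that laminin-511 holds α5, β1 and γ1. An integrin is a dimer of 1 α and 1 β subunit, and β1 pairs with many α subunits while αv pairs with several β subunits. In arteries, laminins of the smooth muscle and endothelial basement membranes meet α3β1, α6β1 and α7β1, collagens meet α1β1, α2β1 and α11β1, and fibronectin and other ligands with the Arg-Gly-Asp motif meet α5β1, α8β1 and the αv integrins.

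Library totals ran from 13909230 to 27517374 counts, and the members took 0.570% to 0.829% of them. Tcf3 itself was at 143 to 145 CPM (counts scaled to the library size) in E12 KO, 107 to 109 CPM in E12 WT, 128 CPM in both E47 KO and 93.7 to 94.5 CPM in E47 WT libraries; a gene count does not separate its isoforms, so it does not check the labels. The E12 WT pair was less alike than the other pairs, with a chi-square per degree of freedom of 13.1 against 4.45 to 4.82. Of the smooth muscle markers, Acta2 reached 1626 to 3693 CPM in all 8 libraries, and the summed level of the 8 markers was 1807 to 1836 CPM in E12 KO, 2108 to 2165 CPM in E12 WT, 2352 to 2390 CPM in E47 KO and 4209 to 4463 CPM in E47 WT. Acta2 made up most of each sum. Mean levels in E12 KO, E12 WT, E47 KO and E47 WT were 2.43, 7.44, 6.92 and 98.2 CPM for Myh11. In the same order they were 2.31, 7.34, 19.8 and 103.5 CPM for Cnn1 and 128, 113, 115 and 310 CPM for Smtn. Myocd was not highest in E47 WT, at 1.65, 11.3, 12.1 and 4.90 CPM. The 10 endothelial markers, 9 of them tested, summed to 657 to 720 CPM in E47 WT and to 4.68 to 12.4 CPM in the other 6 libraries, with Cldn5 at 3 counts or fewer in all groups. The 10 mesothelial and epithelial markers, 8 of them tested, summed to 890 to 914 CPM in E12 KO, 1486 to 1594 CPM in E12 WT, 432 to 451 CPM in E47 KO and 205 to 222 CPM in E47 WT, with Epcam at 3 counts or fewer. The 8 adventitial fibroblast markers summed to 440 to 497 CPM in E47 KO and 194 to 236 CPM elsewhere. They did not move as one: by the test described below, 5 were higher and 2 lower in E47 KO than in E47 WT. Skeletal muscle markers reached at most 0.358 CPM and Schwann cell markers at most 11.2 CPM. In bulk RNA, fewer cells of a type and less RNA per cell cannot be told apart.

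All levels below are CPM on TMM-scaled library sizes (trimmed mean of M values). Each change is a log2 fold change with its standard error (SE) from edgeR's quasi-likelihood test, called when the Benjamini-Hochberg adjusted p over the 13992 genes was under 0.05. In E12 KO cells, 23 of the 31 tested members were lower than in E12 WT cells, 3 were higher and 5 did not pass the test. Over all genes tested, 24.5% were lower and 21.9% were higher, 46.4% in either direction. In E47 KO cells, 17 members were lower than in E47 WT cells, 8 were higher and 6 did not pass, against 27.5% lower, 27.7% higher and 55.2% in either direction over all genes. With library totals in place of TMM, the median of all genes in the E47 comparison moved by 0.16 on the log2 scale and the split became 12 members higher and 16 lower. Changes of 2-fold or more were called for 13 members in E12 KO and 14 in E47 KO cells, against 11.9% and 14.9% of all genes. The median log2 change of the tested members was -0.56 in E12 KO and -0.42 in E47 KO, against -0.01 and 0.01 for all genes. Members that reached the filter through 1 high genotype had to differ, so these counts describe the family and are no test of it.

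The changes in the 2 knockouts fell into several patterns, which the plot of both changes shows. Of the 31 tested members, 13 were lower in both knockouts: Itga1, Itga2, Itga3, Itga4, Itga5, Itga7, Itga9, Itga11, Itgav, Itgb1, Itgb5, Lama2 and Lamb1. Over all genes, 8.63% were lower in both. Another 5 members, Itgb4, Itgb6, Lamb2, Lamb3 and Lamc1, were lower in E12 KO and higher in E47 KO, a pattern of 7.92% of all genes. Itga8 was higher in E12 KO and lower in E47 KO, as were 5.3% of genes, and Itgb2 was higher in both, as were 7.5%. The test of the difference between the E12 and E47 changes was passed by 18 members, 14 with a lower and 4 with a higher E12 change, against 25.7% lower, 22.9% higher and 48.6% in either direction over all genes.

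**Figure D1:**
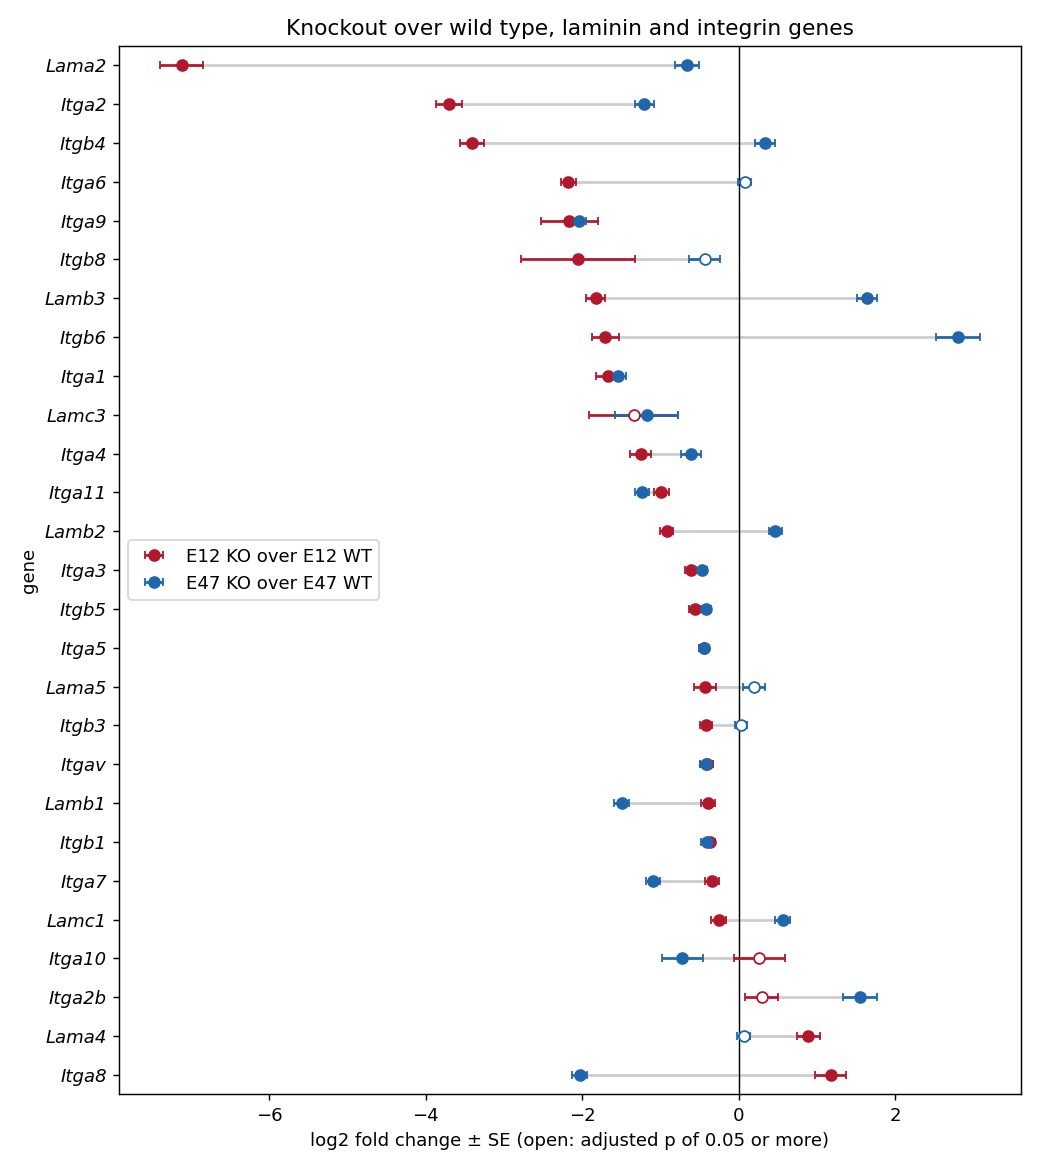
Log2 change of tested members in E12 KO against E12 WT and in E47 KO against E47 WT, with bars of 1 SE and open points for changes that did not pass the test. The genes run down the axis, and Lama1, Itgal and Itgb2, with 3 counts or fewer in a group, are not drawn. Lama2 has the largest fall in E12 KO at -7.12, and Itga8 lies at 1.18 in E12 KO and -2.03 in E47 KO.

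Upstream windows are shown for 5 members: Lama2, with the largest fall in E12 KO, the adjoining pair Itga1 and Itga2, which both fell in both knockouts, and Itga8 and Itgb6, whose changes ran in opposite directions. Each runs from 250 bases before to 50 after a RefSeq start (GRCm38.p6), all on the minus strand, printed 5′ to 3′ with every E-box (CANNTG, read on both strands, the letters being their own complement) in capitals. The windows are Lama2 at chr10:27616893-27617192, Itga1 at chr13:115101915-115102214, Itga2 at chr13:114932051-114932350, Itga8 at chr2:12301895-12302194 and Itgb6 at chr2:60722554-60722853. The Lama2 start lies 2816 bases inside the 5′ end of the GENCODE gene, and the others lie within 40 bases of it.
Lama2: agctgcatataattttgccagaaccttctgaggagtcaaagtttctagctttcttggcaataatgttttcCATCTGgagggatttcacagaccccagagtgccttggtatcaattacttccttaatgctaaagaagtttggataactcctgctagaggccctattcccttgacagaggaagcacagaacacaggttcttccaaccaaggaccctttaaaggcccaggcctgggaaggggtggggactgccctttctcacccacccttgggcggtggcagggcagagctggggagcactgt
Itga1: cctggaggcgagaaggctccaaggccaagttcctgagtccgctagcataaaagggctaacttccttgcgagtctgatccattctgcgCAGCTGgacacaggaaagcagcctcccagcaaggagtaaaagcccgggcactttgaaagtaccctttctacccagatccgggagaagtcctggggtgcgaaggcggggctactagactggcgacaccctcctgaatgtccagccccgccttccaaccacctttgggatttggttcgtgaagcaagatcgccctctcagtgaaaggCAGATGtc
Itga2: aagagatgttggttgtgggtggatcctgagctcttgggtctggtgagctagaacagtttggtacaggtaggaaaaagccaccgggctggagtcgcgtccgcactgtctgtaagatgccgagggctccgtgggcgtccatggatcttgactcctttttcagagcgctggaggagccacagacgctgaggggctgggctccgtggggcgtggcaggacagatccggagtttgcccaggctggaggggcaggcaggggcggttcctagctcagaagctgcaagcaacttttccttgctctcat
Itga8: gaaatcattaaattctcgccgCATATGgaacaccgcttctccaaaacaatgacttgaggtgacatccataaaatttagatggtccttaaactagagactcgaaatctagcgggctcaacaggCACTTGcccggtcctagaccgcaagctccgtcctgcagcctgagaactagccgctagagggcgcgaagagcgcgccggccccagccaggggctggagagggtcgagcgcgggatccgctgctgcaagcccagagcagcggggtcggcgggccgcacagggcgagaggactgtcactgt
Itgb6: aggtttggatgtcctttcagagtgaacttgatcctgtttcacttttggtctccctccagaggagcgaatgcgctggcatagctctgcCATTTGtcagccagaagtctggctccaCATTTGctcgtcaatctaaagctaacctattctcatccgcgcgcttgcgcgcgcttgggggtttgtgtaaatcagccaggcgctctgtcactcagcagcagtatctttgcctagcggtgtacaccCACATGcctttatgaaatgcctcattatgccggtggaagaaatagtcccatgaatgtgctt
Lama2 has 1 E-box at -180, Itga1 has CAGCTG at -163 and CAGATG at 43, Itga8 has CATATG at -229 and CACTTG at -128, and Itgb6 has 3 at -163, -136 and -11, counting from the start. Itga2 has none. Over the members, RefSeq gave 26 windows for 23 genes, of which 22 (84.6%) held CANNTG, against 72.3% of the 32851 windows of all genes. The form CAGCTG stood in 8 windows (30.8%) against 16.3% of all, CAGGTG or its complement CACCTG also in 8 (30.8%) against 20.2%, and CACGTG in 0 against 7.15%; each of these is also a CANNTG match. A match is a description of the letters, and no binding was measured.

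Among the laminin α chains, Lama5 carried most of the level and Lama2 changed most. Lama5, the α chain of laminin-511 and laminin-521, had 1004 and 1112 CPM in E12 KO, against 1118 and 1725 CPM in E12 WT libraries. It had 563 and 664 CPM in E47 KO, against 551 and 518 CPM in E47 WT libraries. Its log2 change was -0.43 in E12 KO (SE 0.142, adjusted p = 0.023) and 0.20 in E47 KO (SE 0.142, adjusted p = 0.26). The E12 groups did not overlap, but the lower E12 WT library stood close to the higher E12 KO one. The E12 call was lost without E12 WT replicate 2, where the change was -0.08, without E12 KO replicate 1, where it was -0.35, under DESeq2 and with only the E12 libraries in the fit. Per kilobase of exon, Lama5 made up 99.3% ± 0.0184 of the summed laminin α level in E12 KO and 96.2% ± 0.0218 in E12 WT, and 90.5% ± 1.08 in E47 KO and 87.0% ± 0.175 in E47 WT (SD, n = 2 each).

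Lama2 encodes the α chain of laminin-211 and laminin-221, the laminins whose loss in humans causes a congenital muscular dystrophy. It had 0.531 and 0.541 CPM in E12 KO, against 59.0 and 92.2 CPM in E12 WT libraries. In the other pair it had 24.7 and 27.4 CPM in E47 KO, against 42.1 and 40.0 CPM in E47 WT libraries. The groups did not overlap in either pair, and E12 KO stood far below all other libraries. The level was 139-fold lower in E12 KO (log2 change -7.12, SE 0.275, adjusted p = 3.4e-11) and 1.58-fold lower in E47 KO (log2 change -0.66, SE 0.154, adjusted p = 0.0022). The difference between these changes was -6.46 on the log2 scale (SE 0.352, adjusted p = 1.3e-09).

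Lama4, the α chain of laminin-411 and laminin-421 in vessel walls, divided the E12 from the E47 cells. It had 6.81 and 7.87 CPM in E12 KO, against 3.64 and 4.26 CPM in E12 WT libraries, and 49.6 and 46.7 CPM in E47 KO, against 47.6 and 45.0 CPM in E47 WT libraries. It was 1.86-fold higher in E12 KO than in E12 WT (adjusted p = 0.0002), while its E47 KO change of 0.06 did not pass the test (SE 0.08, adjusted p = 0.52). Lama1, the α chain of laminin-111, best known from the embryo, had no count in the 4 E12 libraries. It had 3 and 3 counts in E47 KO, against 81 and 164 counts in E47 WT libraries, which is 0.156 and 0.201 CPM against 5.80 and 6.39 CPM. The E47 KO level was 33.7-fold lower (log2 change -5.07, SE 0.356, adjusted p = 8e-08). The endothelial marker sum was high in the same 2 E47 WT libraries, and all 9 tested markers were lower in E47 KO than in E47 WT. Kdr was low even there, at 2.15 and 2.65 CPM in E47 WT, against 5.17 and 2.84 CPM in E12 WT libraries. The part of these markers in the Lama1 level was not tested. Lama3, the α chain of the epithelial laminin-332, had 2 to 6 counts in each genotype and was not tested.

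Among the β chains, Lamb1 fell and Lamb2 rose in E47 KO. Lamb1 (laminin β1) had 242 and 264 CPM in E12 KO, against 310 and 353 CPM in E12 WT libraries, a log2 change of -0.39 (SE 0.091, adjusted p = 0.0027). It had 134 and 163 CPM in E47 KO, against 412 and 424 CPM in E47 WT libraries, a log2 change of -1.49 (SE 0.0931, adjusted p = 4.2e-09). The fall was larger in E47 KO, with a difference of 1.11 (E12 change minus E47 change, adjusted p = 5.9e-06). Lamb2, the β2 chain of mature vessel and nerve-muscle basement membranes, averaged 393 ± 11.6 CPM in E12 KO and 745 ± 32.5 CPM in E12 WT, a log2 change of -0.92 (adjusted p = 4.7e-07). It averaged 772 ± 105 CPM in E47 KO and 558 ± 21.4 CPM in E47 WT, a log2 change of 0.47 (adjusted p = 0.00025). Lamb1 and Lamb2 thus moved in opposite directions in E47 KO: per kilobase, Lamb1 made up 10.4% ± 0.0509 of the summed laminin β level in E47 KO and 31.3% ± 0.387 in E47 WT, and 28% ± 0.643 in E12 KO and 21.0% ± 0.839 in E12 WT (SD, n = 2 each). The size of these shares depends on the length used, which for Lamb1 is 9917 bases of exon against 5784 in its longest coding transcript.

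Lamb3, the β chain of epithelial laminin-332, had 5.12 and 5.53 CPM in E12 KO, against 19.5 and 18.2 CPM in E12 WT libraries. It had 12.9 and 13.1 CPM in E47 KO, against 4.08 and 4.21 CPM in E47 WT libraries. No groups overlapped, and the change was 3.55-fold lower in E12 KO (adjusted p = 1.2e-08) and 3.12-fold higher in E47 KO (adjusted p = 5.6e-08). The summed mesothelial and epithelial markers were lower in E12 KO than in E12 WT and higher in E47 KO than in E47 WT. Of the 8 tested, 3 (Msln, Cdh1 and Krt18) were higher and 5 lower in E12 KO, and 7 were higher and 1 (Krt18) lower in E47 KO. Their part in Lamb3 was not tested. Lamc1, the γ1 chain of most laminins, had 648 and 765 CPM in E12 KO, against 746 and 939 CPM in E12 WT libraries, and 543 and 565 CPM in E47 KO, against 374 and 377 CPM in E47 WT libraries. The E12 groups overlapped, and the log2 change of -0.25 (adjusted p = 0.045) did not pass the test without E12 WT replicate 2, at -0.08, or without E12 KO replicate 1, at -0.13. It was also lost without any of the 4 E47 libraries, with library totals and with only the E12 libraries in the fit. The E47 KO change was 0.56 (SE 0.0986, adjusted p = 0.00021). Lamc3, a γ chain of low level here, averaged 0.265 ± 0.0349 CPM in E12 KO and 0.698 ± 0.175 CPM in E12 WT, which did not pass the test (adjusted p = 0.069). It averaged 0.598 ± 0.184 CPM in E47 KO and 1.48 ± 0.545 CPM in E47 WT, where the call (adjusted p = 0.022) was lost without E47 WT replicate 1, without E47 KO replicate 2 and under DESeq2.

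**Figure D2:**
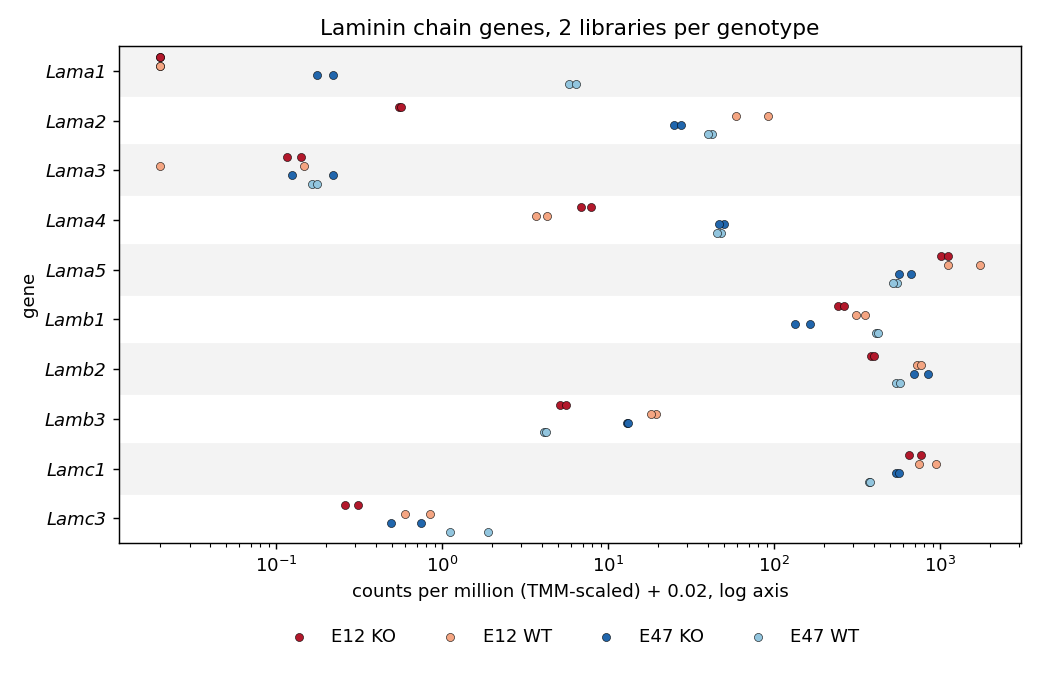
CPM of 10 laminin chains in each of the 8 libraries, with a small constant added for the log axis, 1 point per library coloured by genotype. Lama2 lies at 0.531 and 0.541 CPM in E12 KO and between 24.7 and 92.2 CPM in the other 6 libraries, and Lama4 lies below 8 CPM in the E12 cells and at 45.0 CPM or above in the E47 cells.

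Laminin-binding integrin α subunits are Itga3, Itga6 and Itga7. Itga3, the most abundant of them per kilobase, had 491 and 508 CPM in E12 KO, against 737 and 793 CPM in E12 WT libraries, and 227 and 245 CPM in E47 KO, against 321 and 335 CPM in E47 WT libraries. It fell in both, by 0.61 on the log2 scale in E12 KO (adjusted p = 3.6e-06) and by 0.47 in E47 KO (adjusted p = 4.1e-05), and the 2 falls did not differ by the test (difference -0.14, adjusted p = 0.25). Itga6 pairs with β1 and, in epithelial hemidesmosomes, with β4. It had 9.99 and 8.53 CPM in E12 KO, against 41.3 and 43.1 CPM in E12 WT libraries, and 31.7 and 31.1 CPM in E47 KO, against 30.7 and 28.9 CPM in E47 WT libraries. E12 KO stood below all other libraries, 4.53-fold lower than E12 WT (log2 change -2.18, SE 0.0963, adjusted p = 1.5e-10), and the E47 KO change of 0.08 did not pass the test (SE 0.0841, adjusted p = 0.44). Itgb4, the β partner of Itga6, had 1.83 and 1.5 CPM in E12 KO, against 18.4 and 17.6 CPM in E12 WT libraries, and 8.78 and 9.49 CPM in E47 KO, against 7.16 and 7.25 CPM in E47 WT libraries. It was 10.6-fold lower in E12 KO (adjusted p = 2e-10), and its E47 KO rise of 0.34 (adjusted p = 0.037) was lost when any E47 library was left out, under DESeq2 and with no filter on low counts. The E12 change of Itgb4 differed from its E47 change by -3.75 (adjusted p = 1.5e-09). Both subunits of α6β4 thus fell in E12 KO. Of the 8 tested mesothelial and epithelial markers, 3 were higher and 5 lower there, and their part was not tested.

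Itga7, the laminin receptor of muscle, had 27.3 and 23.7 CPM in E12 KO, against 33.9 and 30.6 CPM in E12 WT libraries, and 29.0 and 29.4 CPM in E47 KO, against 60.0 and 64.6 CPM in E47 WT libraries. It was 2.14-fold lower in E47 KO (adjusted p = 5.4e-08). The smaller E12 KO fall of 0.34 on the log2 scale (adjusted p = 0.0074) was lost without E12 WT replicate 1, without E12 KO replicate 2 or with library totals. E47 WT was the high group for Itga7 as for the summed smooth muscle markers, whose part was not tested.

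The collagen-binding α subunits, Itga1, Itga2, Itga10 and Itga11, all pair with β1. Itga1 and Itga2 lie 20995 base pairs apart on chromosome 13, in the same direction. Itga1 had 6.37 and 6.13 CPM in E12 KO, against 16.3 and 23.7 CPM in E12 WT libraries, and 29.2 and 31.7 CPM in E47 KO, against 88.8 and 88.6 CPM in E47 WT libraries. It fell by 1.66 on the log2 scale in E12 KO (SE 0.154, adjusted p = 5.2e-07) and by 1.55 in E47 KO (SE 0.109, adjusted p = 1.6e-08), and the difference of -0.12 did not pass the test (SE 0.19, adjusted p = 0.64). Itga2 had 2.08 and 1.74 CPM in E12 KO, against 24.5 and 25.8 CPM in E12 WT libraries, and 8.78 and 9.43 CPM in E47 KO, against 18.3 and 22.9 CPM in E47 WT libraries. It was 13.0-fold lower in E12 KO (adjusted p = 1.3e-10) and 2.30-fold lower in E47 KO (adjusted p = 1.1e-06), and here the changes differed by -2.50 (SE 0.218, adjusted p = 2.6e-07). The neighbouring genes were therefore both lower in both knockouts, with the E12 fall of Itga2 being the deeper. Itga2 made up 4.64% ± 0.253 of the summed collagen-binding α level per kilobase in E12 KO and 24.5% ± 1.98 in E12 WT (SD, n = 2 each).

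Itga11, the receptor for fibrillar collagen on mesenchymal cells, had 25.7 and 23.5 CPM in E12 KO, against 44.5 and 53.4 CPM in E12 WT libraries, and 77.8 and 81.5 CPM in E47 KO, against 177 and 197 CPM in E47 WT libraries. It was 1.98-fold lower in E12 KO (adjusted p = 1.2e-06) and 2.35-fold lower in E47 KO (adjusted p = 1.7e-08), and no libraries of a pair overlapped. Itga10, a collagen receptor of cartilage, had 2.03 and 1.68 CPM in E12 KO, against 1.34 and 1.79 CPM in E12 WT libraries, and 1.56 and 2.81 CPM in E47 KO, against 3.37 and 3.59 CPM in E47 WT libraries. Its E47 KO fall of 0.72 (adjusted p = 0.032) became 0.31 and did not pass the test without E47 KO replicate 1, and was also lost without either E47 WT library, under DESeq2, with upper-quartile scaling and with library totals. For Itga10, 33.5% of the exon bases overlap another gene, so its count is uncertain. Summed per kilobase, the 4 collagen-binding subunits came to 5.76 ± 0.398 in E12 KO and 14.4 ± 1.69 in E12 WT, and to 18.9 ± 0.843 in E47 KO and 44.8 ± 3.21 in E47 WT, in CPM per kilobase (SD, n = 2 each).

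Of the subunits that bind the Arg-Gly-Asp motif, Itga8 moved most. Itga8, which pairs with β1 and is a marker of contractile vascular smooth muscle, had 7.39 and 5.05 CPM in E12 KO, against 2.94 and 2.62 CPM in E12 WT libraries. It had 19.5 and 20.8 CPM in E47 KO, against 82.5 and 82.2 CPM in E47 WT libraries. It was 2.26-fold higher in E12 KO (log2 change 1.18, SE 0.196, adjusted p = 0.00018) and 4.09-fold lower in E47 KO (log2 change -2.03, SE 0.0997, adjusted p = 2.6e-10), and the changes differed by 3.21 (SE 0.216, adjusted p = 1.4e-08). The knockouts thus stood between the 2 wild types, with no library of one genotype overlapping another. The 8 smooth muscle markers summed highest in E47 WT. Of them, 2 were higher and 5 lower in E12 KO than in E12 WT, and 1 was higher and 7 lower in E47 KO than in E47 WT, and their part was not tested.

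Itga5, the fibronectin receptor subunit, averaged 103 ± 2.16 CPM in E12 KO and 141 ± 4.99 CPM in E12 WT, and 171 ± 2.44 CPM in E47 KO and 232 ± 0.417 CPM in E47 WT. It fell by 0.45 on the log2 scale in E12 KO (adjusted p = 5.1e-05) and by 0.44 in E47 KO (adjusted p = 3.4e-05). Itgav, the partner of β1, β3, β5, β6 and β8, averaged 455 ± 38.4 CPM in E12 KO and 605 ± 70.8 CPM in E12 WT, and 424 ± 14.7 CPM in E47 KO and 563 ± 29.7 CPM in E47 WT. It fell by 0.41 in both knockouts (adjusted p = 0.0011 in E12 KO and 0.00087 in E47 KO). Itga2b, the platelet fibrinogen receptor subunit, had 3.91 and 3.42 CPM in E12 KO, against 2.68 and 3.36 CPM in E12 WT libraries, and 4.26 and 4.68 CPM in E47 KO, against 1.43 and 1.56 CPM in E47 WT libraries. It was 2.94-fold higher in E47 KO (adjusted p = 3e-05), while the 5 platelet markers, 1 of them tested, summed to 0.676 and 0.869 CPM in E47 KO and 2.08 and 1.99 CPM in E47 WT, with Gp6, Pf4 and Ppbp at 3 counts or fewer.

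Itga4 and Itga9 form a separate class, which binds Vcam1, osteopontin and an alternatively spliced fibronectin segment. Itga4 had 100 and 133 CPM in E12 KO, against 245 and 310 CPM in E12 WT libraries, and 154 and 123 CPM in E47 KO, against 208 and 213 CPM in E47 WT libraries. It was 2.38-fold lower in E12 KO (adjusted p = 2.2e-06) and 1.52-fold lower in E47 KO (adjusted p = 0.0012). Itga9, which also binds tenascin-C, was much higher in the E47 cells. It had 0.290 and 0.421 CPM in E12 KO, against 1.85 and 1.27 CPM in E12 WT libraries, and 11.4 and 11.6 CPM in E47 KO, against 46.8 and 48.2 CPM in E47 WT libraries. It was 4.47-fold lower in E12 KO (adjusted p = 0.00018) and 4.12-fold lower in E47 KO (adjusted p = 1.7e-10), and the difference of -0.12 between these changes did not pass the test (SE 0.347, adjusted p = 0.83). The E12 value rests on 13 counts in E12 KO and 46 in E12 WT. Of the summed level of both subunits per kilobase, Itga9 made up 0.546% ± 0.0336 in E12 KO and 1.05% ± 0.436 in E12 WT, and 13.3% ± 1.98 in E47 KO and 29.1% ± 0.122 in E47 WT (SD, n = 2 each).

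**Figure D3:**
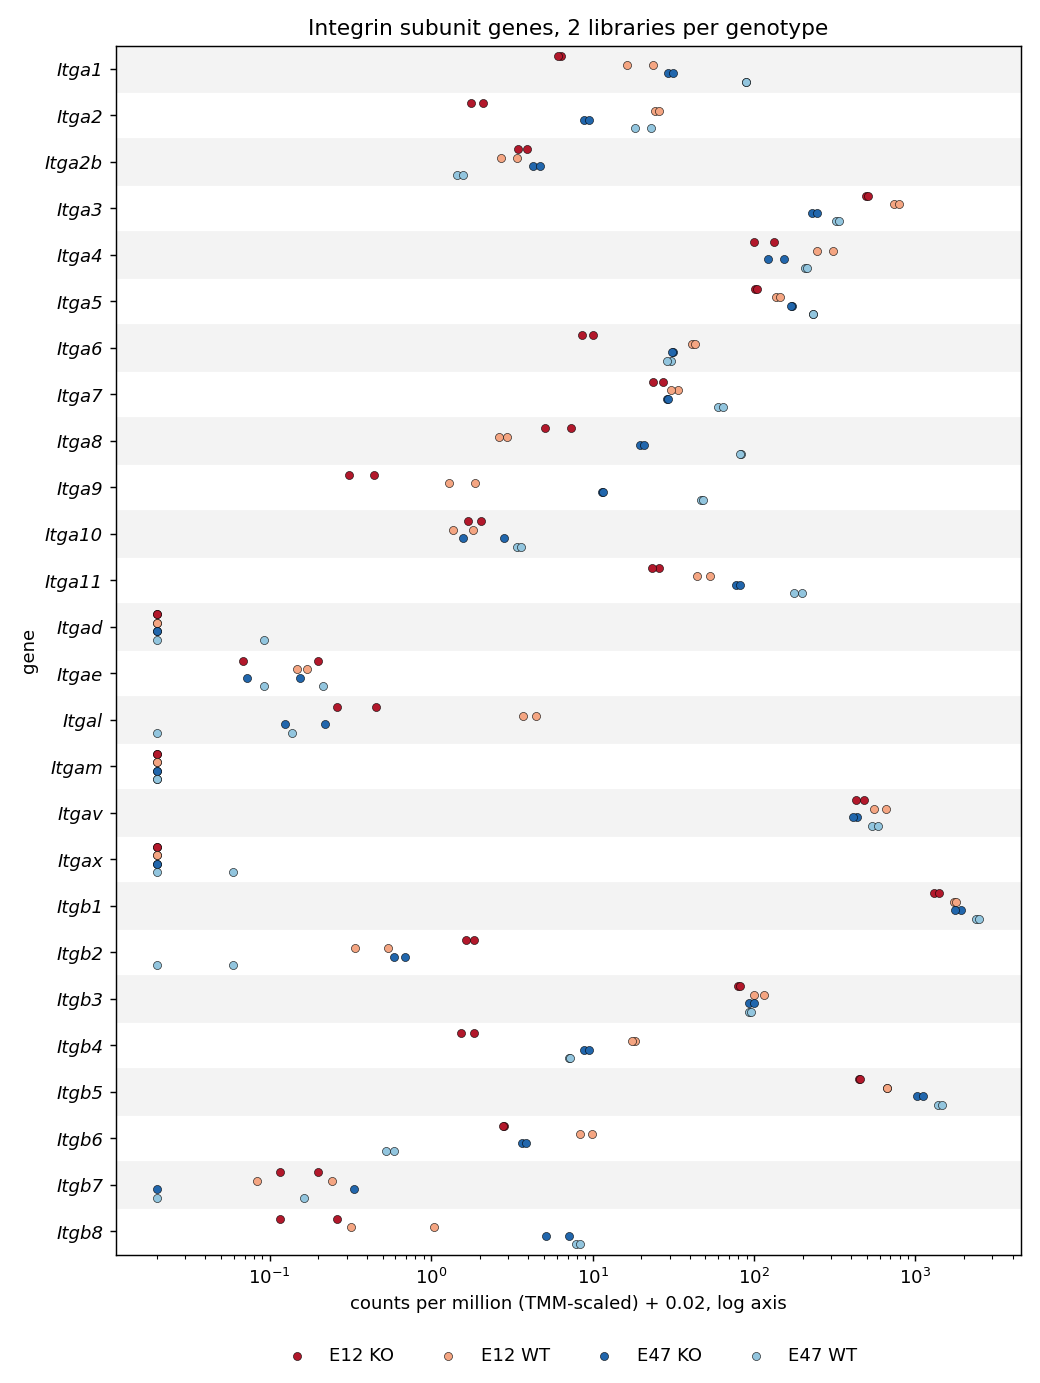
CPM of the 26 integrin subunits in each of the 8 libraries, with a small constant added for the log axis, 1 point per library coloured by genotype. Itga9 lies at 1.85 CPM or below in the E12 cells and at 11.4 CPM or above in the E47 cells, and Itgb1 stays between 1312 and 2491 CPM.

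Itgb1, the common β partner, was the member with the highest level per kilobase in every genotype, at 333 ± 16.5 CPM per kilobase in E12 KO and 430 ± 9.03 in E12 WT, and 451 ± 25.9 in E47 KO and 598 ± 17.5 in E47 WT. Its level fell by 0.37 on the log2 scale in E12 KO (adjusted p = 0.00047) and by 0.41 in E47 KO (adjusted p = 0.00015). Itgb5, a vitronectin receptor with αv, had 447 and 456 CPM in E12 KO, against 663 and 670 CPM in E12 WT libraries, and 1020 and 1115 CPM in E47 KO, against 1377 and 1470 CPM in E47 WT libraries. It fell by 0.56 in E12 KO (adjusted p = 9.2e-06) and by 0.42 in E47 KO (adjusted p = 0.00012). Itgb3, a vitronectin and fibrinogen receptor subunit, averaged 80.7 ± 1.87 CPM in E12 KO and 108 ± 11.3 CPM in E12 WT, a fall of 0.42 (adjusted p = 0.00049), and 96.8 ± 4.36 CPM in E47 KO and 94.6 ± 2.06 CPM in E47 WT, which did not pass the test (adjusted p = 0.75). Per kilobase, Itgb1 made up 70.1% ± 0.742 of the summed β level in E12 KO and 67.2% ± 0.111 in E12 WT, and 58.5% ± 2.91 in E47 KO and 58.8% ± 0.385 in E47 WT, with Itgb5 taking most of the rest.

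Itgb6 and Itgb8 are among the β subunits that with αv can activate latent TGF-beta. Itgb6, found mainly in epithelia, had 2.80 and 2.76 CPM in E12 KO, against 8.29 and 9.94 CPM in E12 WT libraries, and 3.64 and 3.88 CPM in E47 KO, against 0.573 and 0.507 CPM in E47 WT libraries. It was 3.26-fold lower in E12 KO (adjusted p = 1.6e-06) and 6.98-fold higher in E47 KO (adjusted p = 7.2e-07), a difference of -4.51 (SE 0.325, adjusted p = 3.1e-08). The mesothelial and epithelial marker sum was lower in E12 KO and higher in E47 KO, with the tested markers split 3 higher and 5 lower in E12 KO and 7 higher and 1 lower in E47 KO, and their part was not tested. Itgb8 had 0.0965 and 0.240 CPM in E12 KO, against 1.02 and 0.299 CPM in E12 WT libraries, and 5.09 and 7.09 CPM in E47 KO, against 7.88 and 8.30 CPM in E47 WT libraries. Its call in E12 KO (adjusted p = 0.032) rests on 6 counts in E12 KO and 20 in E12 WT, and without E12 WT replicate 1 the change was -0.87, or without E12 KO replicate 1 it was -1.48, and did not pass the test. Its E47 KO change of -0.43 did not pass either (adjusted p = 0.083).

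Integrins of leukocytes were low throughout. Itgb2 had 38 and 27 counts in E12 KO, against 5 and 7 counts in E12 WT libraries, and was 4.14-fold higher (adjusted p = 0.00072). It had 11 and 10 counts in E47 KO, against 0 and 1 counts in E47 WT libraries, a ratio of 24.3 with a counting interval of 3.91 to 1006 (95%, exact). Itgal had 9 and 4 counts in E12 KO, against 70 and 49 counts in E12 WT libraries, and was 11.5-fold lower (adjusted p = 2.4e-06). The pair of αL and β2 therefore moved in opposite directions in E12 KO, at levels of at most 4.47 CPM. Itgam, whose exons overlap another gene over 68.7% of their length, had no count in any library, which allows up to 0.0757 to 0.103 CPM over a genotype. Itgad and Itgax had 1 count each, both in E47 WT, Itgae had 3 to 6 counts and Itgb7 had 2 to 6 counts in each genotype, and none of these was tested. The 10 leukocyte markers, 4 of them tested, summed to 12.6 to 12.9 CPM in E12 KO, 12.5 to 12.6 CPM in E12 WT, 11.6 to 11.8 CPM in E47 KO and 15.5 to 16.7 CPM in E47 WT, with Ptprc, Adgre1 and Cd3e at 3 counts or fewer in all groups. Of the 4 tested, 1 (Cd14) was higher and 3 (Lyz2, Cd68 and Csf1r) were lower in E12 KO than in E12 WT, although the sums were alike, and their part in Itgal and Itgb2 was not tested.

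**Figure D4:**
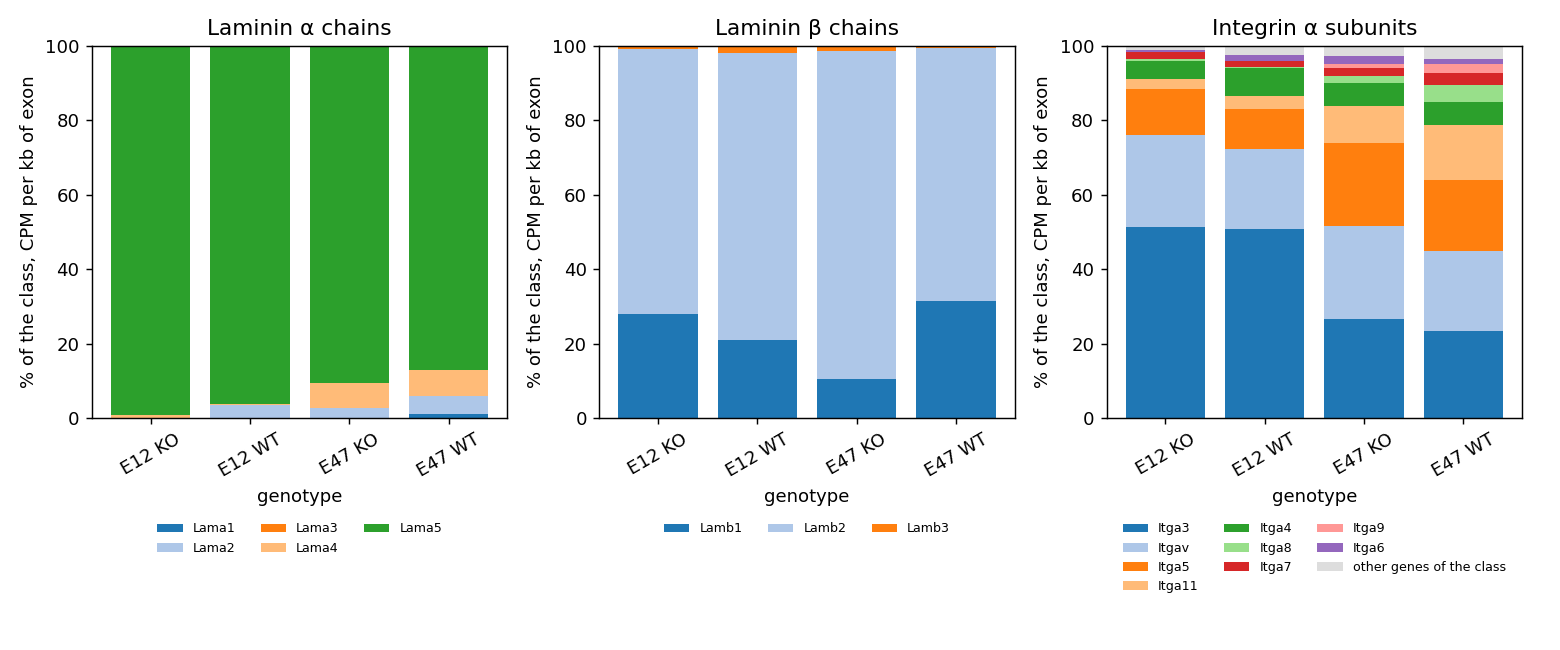
Share of each subunit in the summed CPM per kilobase of its class, as stacked bars of the genotype mean in percent, for laminin α chains, laminin β chains and integrin α subunits. Lamb1 is at 10.4% of the β chains in E47 KO and 31.3% in E47 WT, and Itga3 is at 51.3% of the integrin α subunits in E12 KO, 50.9% in E12 WT, 26.5% in E47 KO and 23.4% in E47 WT.

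The wild types also differed from each other. Between E12 WT and E47 WT cells, 14 members were higher in E12 WT, 14 were lower and 3 did not pass the test, with 27.8% of all genes higher, 27.6% lower and 55.4% in either direction. Differences of 2-fold or more were called for 19 members, against 17.8% of genes. The members lower in E12 WT by the most were Itga9, 29.9-fold (log2 difference -4.90, adjusted p = 4e-13), Itga8, 29.5-fold (-4.88, adjusted p = 3.7e-13), Lama4, 11.7-fold (-3.55, adjusted p = 1.5e-12) and Itgb8, 11.7-fold (-3.55, adjusted p = 2.3e-07). Lama1 had 0 counts in E12 WT and 245 in E47 WT, at least 59.9-fold lower in E12 WT with 3 counts over the group as the limit. Those higher in E12 WT were Itgb6, 16.9-fold (log2 difference 4.08, adjusted p = 1.4e-09), Lamb3, 4.52-fold (2.18, adjusted p = 1e-09) and Lama5, 2.66-fold (1.41, adjusted p = 8.8e-07). Itgal had 119 counts in E12 WT and 3 in E47 WT, a ratio of 54.1 with a counting interval of 18.1 to 266, and Itgb2 had 12 counts in E12 WT and 1 in E47 WT. E47 WT also held the high endothelial and smooth muscle marker sums and E12 WT the high mesothelial and epithelial sum. Of 9 tested endothelial markers, 8 were lower and 1 (Kdr) higher in E12 WT. Of 8 smooth muscle markers, 6 were lower and 1 (Myocd) higher in E12 WT. Of 8 tested mesothelial and epithelial markers, 7 were higher and 1 (Krt18) lower in E12 WT. The part of these markers in the differences was not tested. The labels name no second cell population per genotype, so population and genotype cannot be told apart.

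Between the knockouts, 6 members were higher in E12 KO than in E47 KO, 17 were lower and 8 did not pass the test, with 25.9% of all genes higher, 27% lower and 52.9% in either direction. Differences of 2-fold or more were called for 15 members, against 14.6% of genes. Lama2 was 47.9-fold lower in E12 KO (log2 difference -5.58, adjusted p = 1.3e-09), Itgb8 35.9-fold (-5.16, adjusted p = 1.2e-07), Itga9 32.5-fold (-5.02, adjusted p = 9.3e-11) and Lama4 6.61-fold (-2.72, adjusted p = 1.2e-11). Itga3 was the member above 2-fold on the higher side with a mean of at least 2 CPM, at 2.11-fold (1.08, adjusted p = 6.5e-09). This comparison shares its libraries with the knockout comparisons, so its values are not independent of theirs. Over the 4 genotypes together, all 31 tested members passed the test, against 80.8% of all genes.

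Set out by complexes, with every subunit required to average at least 1 CPM per kilobase, 2 of 14 laminin trimers had all chains present in E12 KO, 4 in E12 WT, 6 in E47 KO and 6 in E47 WT. Laminin-511 and laminin-521 were present in all 4 genotypes. The least abundant chain of laminin-511 was Lamb1, at 25.5 ± 1.57 CPM per kilobase in E12 KO and 33.4 ± 3.07 in E12 WT, and 15.0 ± 2.10 in E47 KO and 42.1 ± 0.852 in E47 WT. Laminin-211 and laminin-221 were present in all but E12 KO, where Lama2 averaged 0.0328 CPM per kilobase, against 4.63 in E12 WT. By exon length, laminin-411 and laminin-421 were present in the E47 cells only, since Lama4 averaged 0.608 in E12 KO and 0.327 in E12 WT, and 3.99 in E47 KO and 3.83 in E47 WT. With the longest coding transcript as the length, which for Lama4 is 6046 bases against 12068 of exon, E12 KO had 4 trimers present. Laminin-411 and laminin-421 were then present in E12 KO too. Laminin-332 was below the limit in every genotype because Lama3 was.

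Of 24 integrin dimers, 9 had both subunits present in E12 KO, 13 in E12 WT, 14 in E47 KO and 14 in E47 WT, and the 9 of E12 KO were present in all 4 genotypes. These 9 were α3β1, α4β1, α5β1, α6β1, α7β1, α11β1, αvβ1, αvβ3 and αvβ5. α1β1, α2β1 and α6β4 were present in all but E12 KO. Some of these levels lie near the limit of 1 CPM per kilobase: Itga6 was at 1.11 and 0.945 in E12 KO, Itga1 at 0.878 and 1.27 in E12 WT, and Itgb4 at 1.02 and 1.03 in E47 WT libraries. With library totals in place of TMM scaling, 13 dimers were present in E47 WT. By exon length, α8β1 and α9β1 were present in the E47 cells only, with Itga8 at 0.844 CPM per kilobase in E12 KO and 0.377 in E12 WT, and 2.74 in E47 KO and 11.2 in E47 WT. αvβ6 was present only in E12 WT, at 1.28 CPM per kilobase of Itgb6. The α subunit was the less abundant one in all the β1 dimers listed. With the longest coding transcript as the length, 11 dimers were present in E12 KO, 13 in E12 WT, 15 in E47 KO and 14 in E47 WT. At that length, 5812 bases for Itga8 against 7368 of exon, α8β1 was present in E12 KO too. The dimer αIIbβ3 (Itga2b and Itgb3) was then present in E12 KO and E47 KO. For Itga2b that length is 3437 bases against 5454 of exon. These are transcript levels, and no pairing of proteins was measured.

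**Figure D5:**
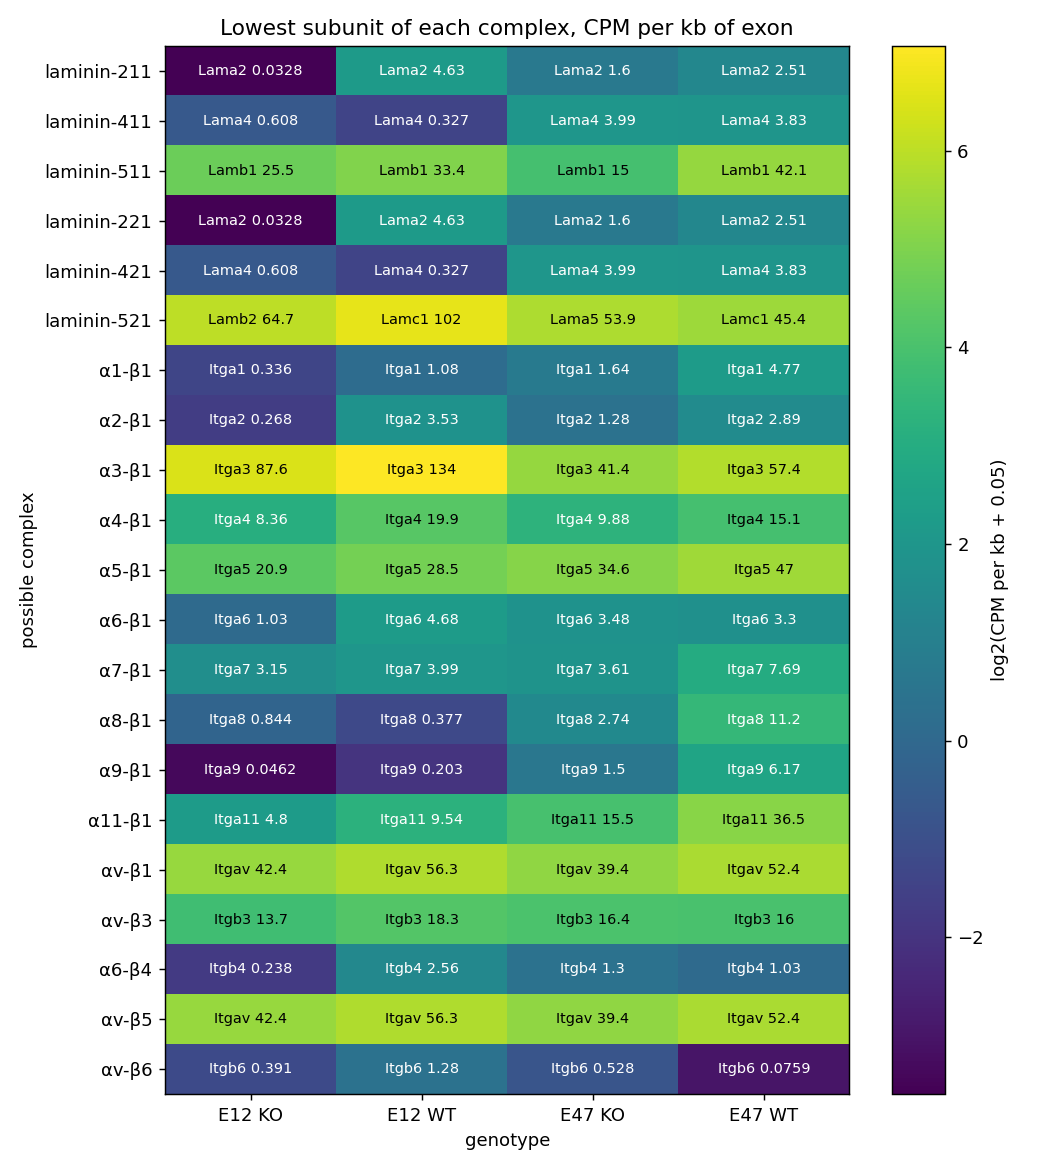
Least abundant subunit of each laminin trimer and integrin dimer that reached 1 CPM per kilobase in any genotype, with its mean level printed in the cell and coloured on a log2 scale, by genotype. Laminin-211 is at 0.0328 in E12 KO, and α6β4 lies at 0.238 in E12 KO against 2.56 in E12 WT.

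Genes that work beside the members were read from 4 lists of textbook partners. Over all genes tested, 21.9% were higher and 24.5% lower in E12 KO, and 27.7% were higher and 27.5% lower in E47 KO, and a list's counts near these shares are not a result about the list. Of 15 tested basement membrane partners, 4 were higher and 7 lower in E12 KO than in E12 WT, and 5 were higher and 7 lower in E47 KO than in E47 WT. The nidogens, which join laminin to collagen IV, rose in E12 KO, Nid1 by 0.65 and Nid2 by 0.66 on the log2 scale (adjusted p = 1.1e-05 and 2.6e-05), while nephronectin (Npnt), the main α8β1 ligand of the developing kidney, fell by 0.92 (adjusted p = 7.2e-08) and Sparc, a collagen-binding matrix protein, fell by 0.96 (adjusted p = 1.8e-08). In E47 KO, Col4a6, a collagen IV chain, was 3.31 higher (174 ± 4.36 CPM in E47 KO and 17.5 ± 0.181 CPM in E47 WT, adjusted p = 9.4e-14) and Col18a1 was 2.49 lower (28.9 ± 0.32 CPM in E47 KO and 162 ± 1.43 CPM in E47 WT, adjusted p = 1.8e-12). Of 10 other laminin receptors, 0 were higher and 5 lower in E12 KO, among them Bcam, which binds laminin α5, at -1.53 (adjusted p = 2e-09), the syndecans Sdc2 at -0.50 and Sdc1 at -0.52 (adjusted p = 1.2e-05 and 1.4e-05), and Dag1 (dystroglycan) at -0.35 (adjusted p = 0.0017). In E47 KO, 3 were higher and 5 lower, with Sdc1 at 1.36 (adjusted p = 3.1e-10).

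Of 17 tested integrin ligands, 3 were higher and 9 lower in E12 KO, and 5 were higher and 8 lower in E47 KO, beside the all-gene shares of 21.9% and 24.5% in E12 KO and 27.7% and 27.5% in E47 KO. Icam1, a β2 integrin ligand, had 1.19 ± 0.157 CPM in E12 KO and 7.84 ± 0.535 CPM in E12 WT. It had 2.24 ± 0.52 CPM in E47 KO and 91.1 ± 8.68 CPM in E47 WT. The level fell in both knockouts (log2 change -2.69 and -5.36, adjusted p = 8.1e-08 and 2e-13). The endothelial marker sum was high in the same E47 WT libraries, and the part of these markers in the Icam1 level was not tested. Postn, an αv integrin ligand, was 2.09 lower in E47 KO (adjusted p = 5.1e-12), and Cdh1, an αE ligand and also a mesothelial and epithelial marker here, was 6.87 higher (adjusted p = 1.7e-12). Of 31 tested adhesion adaptors, 10 were higher and 9 lower in E12 KO, and 7 were higher and 18 lower in E47 KO. Without E12 KO replicate 1, the E12 counts were 6 higher and 5 lower. Parvb, which links integrin-linked kinase to actin, was 3.37 lower and Tln2, a talin that binds β tails, was 1.89 lower in E47 KO (adjusted p = 1.7e-12 and 7.5e-09), while Fblim1 was 1.04 higher in E12 KO and 0.83 lower in E47 KO (adjusted p = 5.7e-09 and 4.4e-08).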

How the data were processed

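RNA was taken from cultured aortic smooth muscle cells of 4 genotypes, 2 libraries each, and made into unstranded polyA-enriched libraries, per the labels' protocols. The submitters' processing notes name FastQC, HISAT, featureCounts and GRCm38 (mm10); they give neither tool versions nor an annotation. Per gene and library, the deposited table holds raw counts that the authors did not normalize or pool. Library totals ran from 13909230 to 27517374 counts. PCR copies were not marked by molecular identifiers, so counting intervals (95%, exact) and the limit of 3 counts that a count of 0 allows cover counting error only.

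Counts were fitted with edgeR 4.0.16 in R 4.3.3, after its low-count filter (13992 genes) and TMM scaling, as 4 groups over 8 libraries without covariates (4 residual degrees of freedom, common biological coefficient of variation 0.0598), and contrasts were tested by the quasi-likelihood F test with Benjamini-Hochberg adjustment over all genes tested. The steps were tested on simulated data. Positions, exon lengths and overlaps came from GENCODE M21 (GRCm38), which matched all 37 members by symbol. Values per library are given for members called with a log2 change of at least 1 and a mean of at least 2 CPM; partner genes named come from the called members with the lowest p, up to 4 per list and comparison, not all of which are given. A member and a marker gene that the rules took are not reported here by name, though counts and sums include them. The members, lists and alternatives were chosen with earlier results of these data known. Alternatives were other scalings, DESeq2 1.42.0, no filter, only the compared groups, other lengths, and leaving out each library.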

Additional observations from a re-analysis of the deposited data

Results flagged for a closer look

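For 17 members named here the change in E12 KO against E12 WT differed from the change in E47 KO against E47 WT by the test of the difference (edgeR's quasi-likelihood test, Benjamini-Hochberg adjusted p under 0.05), and values are the E12 change minus the E47 change on the log2 scale. Over all genes tested, 48.6% passed this same test, so passing it is common in these data. The E12 change was the lower one for Lama2 (-6.46), Itgb6 (-4.51), Itgal (-4.42), Itgb4 (-3.75), Lamb3 (-3.47), Itga2 (-2.50), Itga6 (-2.26), Lamb2 (-1.39), Itga2b (-1.26), Lamc1 (-0.82), Itga4 (-0.64), Lama5 (-0.62) and Itgb3 (-0.45). It was the higher one for Itga8 (3.21), Lamb1 (1.11), Lama4 (0.83) and Itga7 (0.76). The Itgal value rests on 5 counts in E47 KO and 3 in E47 WT, so its size depends on the prior count of the fit. The calls of Itga4 and Lama5 were lost under some alternatives, with Lama5 between -0.90 and -0.28 and Itga4 between -0.86 and -0.45 when a library was left out.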

How the results depend on the processing

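Counts of members called kept within 1.5 times of the main count in every alternative run. When a library was left out, the members lower in E12 KO numbered 20 to 22 and those higher 3, and in E47 KO those lower numbered 15 to 18 and those higher 7 to 9. Of 1929 alternative values for single members, 1813 had the same direction and side of the threshold, 58 lost the call, 34 gained it and 24 changed sign; 107 of 140 results held in all of them. Those that changed sign were never past the test. The difference between the E12 and E47 changes of Itga5 was 0.0058 with RLE scaling and 0.0057 with DESeq2, that of Itgav was -0.074 with upper-quartile scaling and -0.059 with library totals, and that of Itgb1 was -0.038 and -0.024 under the same 2 scalings. With a library left out, the difference ranged from -0.37 to 0.16 for Itga1, -0.044 to 0.029 for Itga5, -0.38 to 0.19 for Itga9, -0.11 to 0.13 for Itgav, -0.020 to 0.096 for Itgb1 and -0.52 to 0.25 for Lamc3. Likewise the E47 KO change of Itgb3 ranged from -0.0054 to 0.089, the wild-type difference of Itgav from -0.021 to 0.22 and the knockout difference of Itga10 from -0.58 to 0.27. The laminin trimers present in E12 KO became 4 in place of 2 with the longest coding transcript as the length, and the adhesion adaptors lower in E12 KO became 5 in place of 9 with library totals. Library totals moved the median E12 KO change of all genes by 0.093 on the log2 scale, and the part of this shift in the adaptor count was not tested. With 2 libraries a group, depth limits Itgb2, Itgal, Itgb8, Lama1 and Lamc3. No paired analysis was possible because the labels give no replicate numbers that groups share.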
